A study of Mus musculus with 7 samples.

Results

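Cd44 and 8 other genes for surface molecules that leukocytes use to roll, stick and cross vessel walls were followed in 2 kinds of mouse B-cell acute lymphoblastic leukaemia (B-ALL). The genes are Cd44, Selplg, Icam1, Icam2, Pecam1, Esam, Cd47, Cd99l2 and Spn, taken by name from the 24726 gene entries measured. They were chosen on their role and with their levels in these same leukaemias already known, so their differences between the groups are given as values with their errors and without a test. Polyadenylated RNA was sequenced from 5 leukaemias on the C57BL/6 background. In 3 of them, the Pax5-Etv6 B-ALL, 1 allele of Pax5 carries the Pax5-Etv6 fusion and 1 copy of the Cdkn2a-Cdkn2b tumour suppressor locus is lost (Cdkn2ab+/-), and the RNA came straight from whole lymph node. The other 2, the control B-ALL, lack Trp53, carry NrasG12D on 1 allele and a retroviral Myc, and were whole bone marrow cells cultured for a short time. By the labels, the groups share no engineered allele. Neither preparation was sorted, and ages are not given in the labels. Genotype, tissue, culture and the cDNA kit named for the Pax5-Etv6 libraries alone all follow the groups, so their parts in any difference cannot be told apart.

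Leukocytes leave the blood in steps. Sialomucins such as PSGL-1 (Selplg) and CD43 (Spn), and some forms of CD44, carry sugars that selectins hold while the cell rolls. Integrins then grip immunoglobulin-superfamily ligands such as ICAM-1 and ICAM-2, and cells pass between endothelial cells through contacts made by PECAM-1, ESAM and CD99-family proteins. CD44 also binds hyaluronan, a sugar polymer of the bone marrow matrix, and in B-cell development its level differs between progenitors, pre-B cells and mature B cells. CD47 sits on nearly all blood cells and holds back phagocytes by binding SIRP-alpha.

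The libraries held 20110795 to 50994959 reads, recovered as lower bounds from the deposited TPM values (transcripts scaled to the same total in every library). Trp53, deleted in the controls, stood at 454 to 490 TPM in the Pax5-Etv6 libraries and at 11.3 and 20.5 TPM in the controls, as the labels have it. All 10 B-lineage markers were detected in every library, with Cd79b between 630.0 and 3672 TPM. On the second principal component, Pax5-Etv6 replicate 1 lay far from replicates 2 and 3 (49.9 against -23.1 and -23.2). Whether each library is a separate animal is not stated in the labels, and errors and p-values therefore cover only sample-to-sample spread, which may be technical.

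Upstream sequences of Cd44 and Icam1 from the RefSeq promoter table (GRCm38.p6) are shown because Cd44 was lower and Icam1 higher in the Pax5-Etv6 leukaemias. The sequences end where the annotated gene begins, which for Icam1 is the start site of the table's promoter window and for Cd44 lies 4 bases before it. Match distances are counted back from that start site to the first base of the match as printed. Capitals mark matches to the motifs named after them.
Cd44, chr2:102901670-102901915, minus strand: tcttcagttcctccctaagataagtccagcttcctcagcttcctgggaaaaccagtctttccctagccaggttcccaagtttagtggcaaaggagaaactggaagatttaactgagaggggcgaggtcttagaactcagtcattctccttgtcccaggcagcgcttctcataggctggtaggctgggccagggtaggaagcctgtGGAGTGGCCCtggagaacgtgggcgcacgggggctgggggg
Icam1, chr9:21015690-21015939, plus strand: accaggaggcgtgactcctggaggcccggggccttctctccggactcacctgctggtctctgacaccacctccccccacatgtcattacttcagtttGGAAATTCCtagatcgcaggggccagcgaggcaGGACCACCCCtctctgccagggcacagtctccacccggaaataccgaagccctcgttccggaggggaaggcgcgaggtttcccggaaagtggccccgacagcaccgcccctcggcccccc

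Of the 9 genes, 5 had a promoter window in the table, and the 250 bases before each start were searched on both strands. Icam1 held a match to a general NF-kappaB pattern (GGG and CC with any 5 bases between) that begins 120 bases before the start, a pattern so loose that 45.8% of the 32851 windows in the table hold it. A further match, to the NF-kappaB variant GGAAATTCC, lay at 153 bases and is held by 0.286% of windows, although this motif was searched only after the sequence had been seen. Cd44 had 1 match, to the general NF-kappaB pattern, at 45 bases. Spn had 2 matches to the same pattern, at 229 and 40 bases, and Cd47 and Cd99l2 had none. The ETS-family core CCGGAAG was found in 1 of the 5 genes, Cd47 (6.91% of windows), and the E-box CACGTG that MYC binds was found in none of them (6.02% of windows). These are matches of letters and not measured binding sites.

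Cd44 was very low in the Pax5-Etv6 leukaemias and among the abundant adhesion genes of the controls. It stood at 1.03, 1.46 and 0.675 TPM in Pax5-Etv6 replicates 1, 2 and 3 and at 176 and 117 TPM in control replicates 1 and 2. The low values rest on 63, 75 and 50 reads, and counting error alone leaves the highest of them, in replicate 2, between 1.15 and 1.83 TPM (exact Poisson 95% interval). The means were 1.05 ± 0.394 TPM (SD, n = 3) and 146 ± 41.5 TPM (SD, n = 2), a level 139-fold higher in the controls. Every Pax5-Etv6 library lay below both controls, and the closest pair of libraries still differed 80.1-fold. On the log2(TPM + 1) scale the difference was -6.15 ± 0.30 (SE), which understates the change of a gene this low. It moved from -4.62 with a pseudocount of 5 TPM to -7.01 with 0.1 TPM. In these unsorted samples, fewer cells with the gene and less RNA per cell cannot be told apart.

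Among the 9 genes, Cd44 thus stood near the top in the controls and at or near the bottom in the Pax5-Etv6 libraries. Cd44 made up 20.8% and 13.6% of the summed TPM of the 9 genes in the controls and 0.0963%, 0.118% and 0.0502% in the Pax5-Etv6 libraries. The other 8 genes together were at 1067, 1240 and 1343 TPM in the Pax5-Etv6 libraries against 668 and 743 TPM in the controls. Among all 11805 genes tested, the log2 difference of Cd44 was the 8th from the lowest. By the size of the difference between centred log2(TPM + 1) profiles over the 5 libraries, the genes most like Cd44 among 8439 others with a mean of at least 10 TPM were BC048943, Gm595, Igkj3, Igkj1 and Snord19 (root mean square difference 0.271 to 0.366). All 5 were listed at 0 in the Pax5-Etv6 libraries, where Cd44 was still read.

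**Figure D1:**
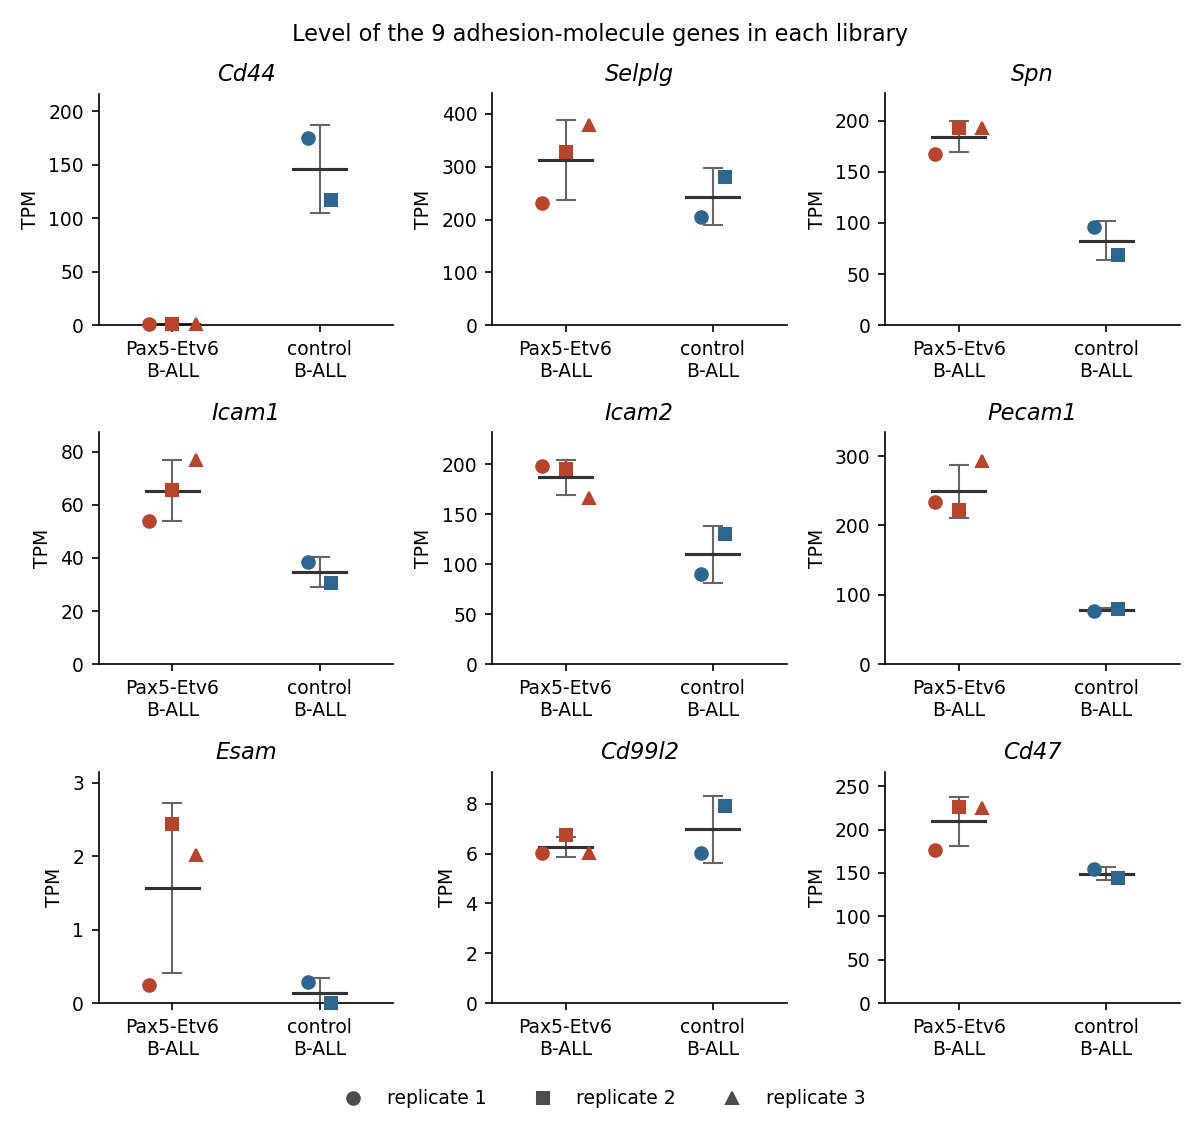
Each panel plots 1 gene, with TPM on a linear axis from 0; points are libraries (circle, square and triangle for replicates 1, 2 and 3), horizontal lines the group means and bars the SD. Cd44 lies at 0.675 to 1.46 TPM in Pax5-Etv6 B-ALL and at 117 and 176 TPM in control B-ALL, while Pecam1, Spn, Icam1, Icam2 and Cd47 are higher in every Pax5-Etv6 library than in either control.

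Most of the other adhesion genes lay on the opposite side. All 9 genes passed the filter of 1 TPM in at least 2 libraries, Esam only through Pax5-Etv6 replicates 2 and 3. For 5 of the 9 (Icam1, Icam2, Pecam1, Cd47 and Spn) the 3 Pax5-Etv6 libraries lay above both controls, a pattern seen in 32.1% of all genes tested, and for Cd44 they lay below, as for 40.1% of all genes tested. Since the genes were proposed from this comparison, nothing is read from these counts. In Selplg, Esam and Cd99l2 the groups overlapped. The median log2 difference of the 9 genes was 0.78, beside -0.11 over all genes tested, and, as with the counts, nothing is read from it. Their log2 differences kept their sign under all alternative settings that gave a value, apart from Cd99l2.

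**Figure D2:**
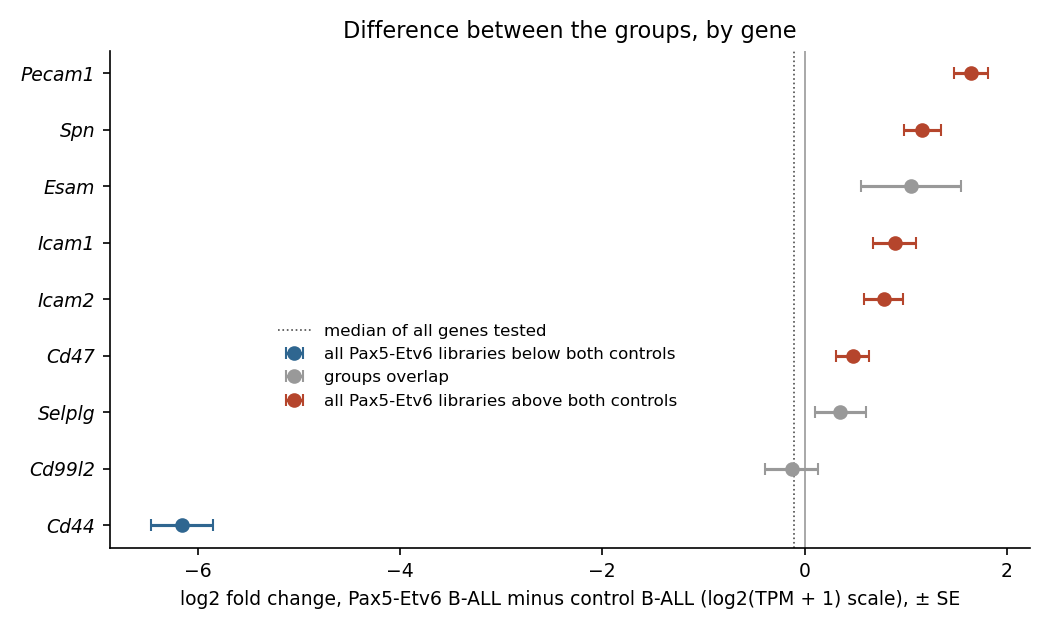
The log2 fold change of each gene (x axis, Pax5-Etv6 B-ALL minus control B-ALL on the log2(TPM + 1) scale, bars ± SE), coloured by whether the libraries of the groups overlap; the dotted line marks the median of all genes tested. Cd44 lies alone at -6.15, and the other 8 genes lie between -0.13 and 1.65.

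Among the sialomucins that carry selectin-binding sugars, Spn was clearly separated between the groups and Selplg was not. Spn, which encodes the large mucin CD43, stood at 167, 193 and 193 TPM in Pax5-Etv6 B-ALL and at 96.2 and 69.1 TPM in the controls. The lowest Pax5-Etv6 library was 1.74-fold above the highest control, and the log2 difference was 1.16 ± 0.18 (SE). Selplg, the PSGL-1 gene and the highest of the 9 in both groups by mean, stood at 231, 329 and 380 TPM against 205 and 281 TPM. Pax5-Etv6 replicate 1 fell between the controls, so the groups overlapped (log2 difference 0.35 ± 0.25 SE). The TPM of Selplg was 1.38 to 1.97 times that of Spn in the Pax5-Etv6 libraries and 2.13 and 4.07 times in the controls. Set against the same mucin, Cd44 was 1.82 and 1.69 times Spn in the controls and at most 0.00758 times Spn in the Pax5-Etv6 libraries.

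Both integrin ligands of the ICAM family were higher in Pax5-Etv6 B-ALL. Icam1, the inducible ligand of the leukocyte integrins LFA-1 and Mac-1, stood at 53.7, 65.4 and 76.8 TPM against 38.5 and 30.7 TPM (log2 difference 0.89 ± 0.21 SE). Its nearest libraries across the groups differed 1.39-fold. Icam2, a constitutive ligand of LFA-1, stood at 199, 196 and 167 TPM against 90.0 and 130 TPM (0.78 ± 0.20 SE), with the nearest libraries 1.28-fold apart. Icam1 and Icam2 ran in opposite orders within the Pax5-Etv6 group: replicate 3 was highest for Icam1 and lowest for Icam2. Icam2 exceeded Icam1 in every library, by 2.17 to 3.70 times in Pax5-Etv6 B-ALL and by 2.33 and 4.24 times in the controls.

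Of the genes for endothelial-junction proteins, Pecam1 showed the widest gap of the genes that were higher. PECAM-1 (CD31) is found on platelets and leukocytes as well as on endothelium and signals through inhibitory motifs in its tail. Pecam1 stood at 233, 222 and 293 TPM against 76.9 and 79.9 TPM, 3.18-fold by the means (249 ± 38.1 TPM, SD, n = 3, against 78.4 ± 2.13 TPM, SD, n = 2). The log2 difference was 1.65 ± 0.17 (SE), and the nearest libraries were 2.78-fold apart. Esam, an adhesion molecule of endothelium, platelets and early blood stem cells, was near the limit of detection, at 0.249, 2.43 and 2.02 TPM against 0.285 and 0 TPM. Those values rest on 5, 41, 49, 11 and 0 reads, the last of which allows up to 0.132 TPM (3 reads). Pax5-Etv6 replicate 1 lay below control replicate 1. Cd99l2, a relative of CD99 with a part in leukocyte passage through vessel walls, was low and alike in level, at 6.03, 6.73 and 6.02 TPM against 6.02 and 7.92 TPM (log2 difference -0.13 ± 0.26 SE). The sign of that difference turned without control replicate 2 (0.05), and with voom on the recovered reads it was 0.0046.

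Cd47, whose product spares cells from phagocytosis, was evenly expressed and moderately higher in Pax5-Etv6 B-ALL. It stood at 177, 226 and 225 TPM against 155 and 144 TPM (log2 difference 0.48 ± 0.16 SE). Its nearest libraries differed only 1.14-fold, the smallest gap among the 5 genes that were higher. By mean level the order in Pax5-Etv6 B-ALL was Selplg, Pecam1, Cd47, Icam2, Spn, Icam1, Cd99l2, Esam and Cd44. Neighbours in that order overlapped from Selplg down to Spn and between Esam and Cd44, and were separated at the steps from Spn to Icam1, from Icam1 to Cd99l2 and from Cd99l2 to Esam. In control B-ALL the order was Selplg, Cd47, Cd44, Icam2, Spn, Pecam1, Icam1, Cd99l2 and Esam, with overlaps between neighbours from Cd47 down to Pecam1. Pecam1 thus stood second by mean in the Pax5-Etv6 group and sixth in the controls.

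Within the Pax5-Etv6 group the spread differed between the genes. The coefficient of variation over the 3 libraries ran from 6.51% for Cd99l2 to 37.3% for Cd44, apart from Esam (74.1%). Replicate 1 was the lowest of the 3 in 5 of the 9 genes (Selplg, Icam1, Esam, Cd47 and Spn) and the highest in 1 (Icam2). Replicate 3 was the highest in 4 (Selplg, Icam1, Pecam1 and Spn). Cd44 was lowest in replicate 3 and highest in replicate 2, 2.16-fold apart.

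Whole tissue can hold other cells that express these genes, and markers of several such cells were higher in the Pax5-Etv6 libraries. Summed TPM of 13 macrophage markers was 125, 540 and 170 in Pax5-Etv6 replicates 1, 2 and 3 and 18.3 and 53.5 in the controls, led by the complement gene C1qc, with Vsig4 listed at 0 in all 5. Neutrophil markers, led by S100a9, summed to 254, 31.5 and 142 TPM against 0.878 and 0.715 TPM. All 8 tested were called higher, but each passed the filter only through the Pax5-Etv6 libraries, so nothing is read from that count. Fibroblastic stromal markers, led by Col1a1, summed to 80.6, 770 and 174 TPM against 1.31 and 8.25 TPM, 1 of the 2 Ccl19 entries being at 0 throughout. Erythroid markers, led by Alas2, summed to 85.1, 15.0 and 26.7 TPM against 0.771 and 1.10 TPM. T-cell markers summed to 185, 477 and 440 TPM against 7.43 and 13.0 TPM, nearly all of it Lck, whose deposited name carries a tag that reads as overlap, while the defining Cd3e was at most 0.64 TPM. NK-cell markers, led by Gzma, were at 8.47 to 9.33 TPM against 0.435 and 0.871 TPM, and Klre1 was at 0 throughout. Gzma was the only NK-cell marker tested, and Ncr1 was at most 0.0521 TPM. Klrd1 went the other way, at 0.107, 0.127 and 0 TPM against 0.167 and 0.189 TPM. The B-lineage sum was also higher, at 6553, 10033 and 10607 TPM against 2910 and 3654 TPM, with 5 of the 10 markers called higher and 1 lower. Each of these sums was higher in all 3 Pax5-Etv6 libraries than in either control.

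The sums of endothelial and platelet markers did not separate the groups, although some single markers did. The 12 endothelial markers summed to 6.41, 53.2 and 28.5 TPM in Pax5-Etv6 B-ALL and to 22.9 and 15.7 TPM in the controls, with Plvap the highest single one (25.6 TPM in replicate 2). The control sums were largely Egfl7 (19.9 and 10.9 TPM), which was at most 5.96 TPM in Pax5-Etv6 B-ALL. Plvap went the other way, at 2.15, 25.6 and 14.9 TPM against 0.286 and 0.324 TPM. Tie1, Cldn5 and Robo4 were at 0 in both controls and above 0 in every Pax5-Etv6 library. The overlapping sums therefore do not show that endothelial content was alike. Platelet and megakaryocyte markers summed to 4.33, 15.2 and 9.29 TPM against 3.76 and 9.22 TPM, led by Pf4. Pecam1 was at 233 TPM in replicate 1, the library with the least endothelial and platelet signal of its group, and at 222 TPM in replicate 2, the one with the most. Esam followed the endothelial sum within the group, being lowest in replicate 1 and highest in replicate 2, and the part of endothelial cells and platelets in the levels of Esam and Pecam1 was not tested. Macrophages, neutrophils and T cells also express several of the 9 genes, among them Selplg and Spn. The part of those cells in the differences was not tested. Within the Pax5-Etv6 group, Selplg, Icam1 and Pecam1 were highest in replicate 3, as were the NK-cell and B-lineage sums. The macrophage, T-cell and stromal sums were highest in replicate 2 and the neutrophil and erythroid sums in replicate 1.

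**Figure D3:**
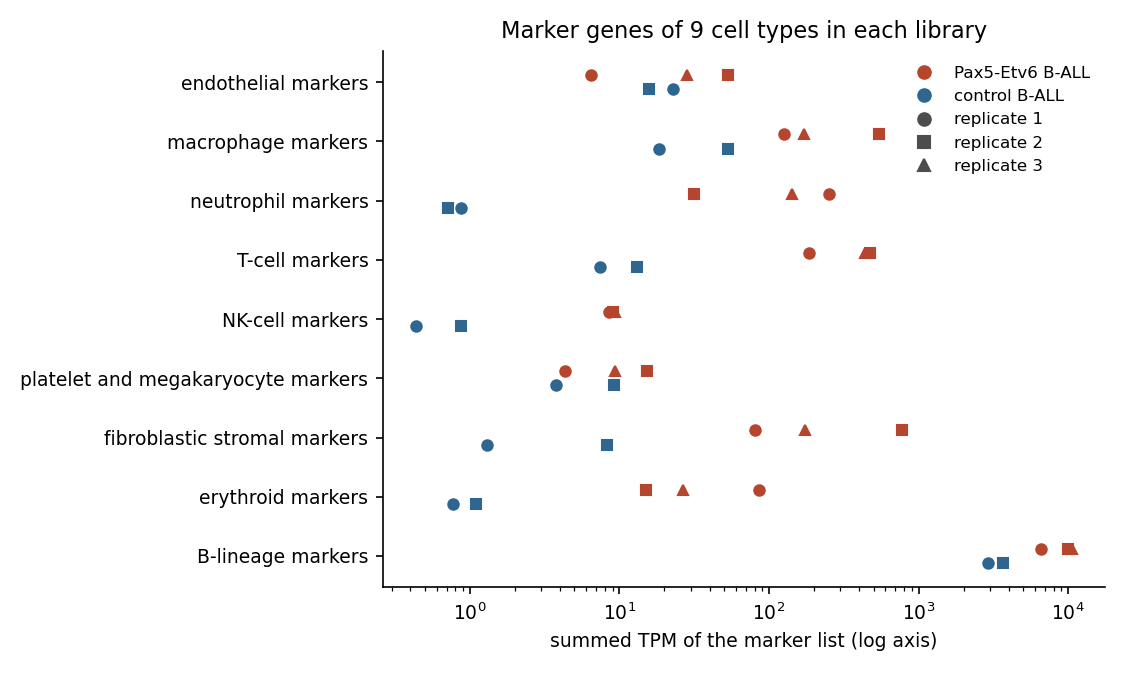
Summed TPM of the marker list of each of 9 cell types in each library (log axis; circle, square and triangle for replicates 1, 2 and 3). The sums for macrophages, neutrophils, T cells, NK cells, stroma, erythroid cells and the B lineage lie higher in all 3 Pax5-Etv6 libraries than in the controls, whereas the endothelial and platelet sums overlap.

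The partners of these molecules were read from 8 lists drawn up by role, 87 genes in all, of which 86 matched an entry and 60 were tested. A gene was called at an adjusted p under 0.05 (limma, Benjamini-Hochberg over all 11805 genes tested). Of the 60, 18 rose (30.0%) and 13 fell (21.7%) in Pax5-Etv6 B-ALL. Of all genes tested, 21.9% were called higher and 29.7% lower, the shares to set beside the counts of each list below. Whether the shares differ was not tested. The median log2 fold change of the 60 was 0.30, beside -0.11 for all genes. Among the calls, Vcam1, Mmp9 and Icam4 were below 1 TPM in both controls, and Gcnt1 was below it in all 3 Pax5-Etv6 libraries. Each of these passed the filter only through the group where it was higher, so little weight is put on its call. Without control replicate 1, which leaves 1 control library assumed to vary like the other group, 11 rose and 6 fell, and with no filter on low values 10 rose and 8 fell. Each call named below as lost without control replicate 1 was also lost with no filter.

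Enzymes that build selectin-binding sugars changed in both directions, with different members of the same step moving apart. Among the 11 tested enzymes 3 rose and 5 fell, with 3 left uncalled and a median log2 fold change of -0.12. St3gal1, a sialyltransferase that caps core-1 O-glycans, rose from 1.69 ± 0.902 TPM (SD, n = 2) to 43.3 ± 14.7 TPM (SD, n = 3; log2 fold change 4.02 ± 0.39 SE, adjusted p = 0.000837). St3gal6, a sialyltransferase of selectin ligands, rose by 2.30 ± 0.31 (adjusted p = 0.00199). C1galt1, which makes the core-1 O-glycan on which mucin sugars are built, stood at 40.4, 45.5 and 38.9 TPM against 221 and 127 TPM and fell by 1.99 ± 0.25 (SE, adjusted p = 0.00167). Its dedicated chaperone C1galt1c1 (Cosmc) fell by 1.49 ± 0.29 (adjusted p = 0.007). The tyrosine sulphotransferases that complete the PSGL-1 binding site split: Tpst2 rose from 17.8 and 31.1 TPM to between 61.0 and 67.2 TPM (adjusted p = 0.00536), whereas Tpst1 fell by 2.43 ± 0.30 (adjusted p = 0.00158). The other 2 that fell, named after their values were seen, were the core-2 enzyme Gcnt1 (adjusted p = 0.00597), at most 0.35 TPM against 2.99 and 2.30 TPM, and the sialyltransferase St3gal4, tagged as overlapping (adjusted p = 0.0196). Gcnt1 passed the filter only through the controls. Leaving out control replicate 1 ended the St3gal4 call (adjusted p = 0.132, at the upper end of a range from 0.0163). Fut7, the fucosyltransferase that finishes sialyl Lewis x, was too low to test, at 1.12 TPM or less in every library.

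The endothelial selectins Sele and Selp, which hold rolling leukocytes, were too low to test, at most 0.475 and 0.384 TPM in any library.

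Integrin chains, among them those that grip ICAMs and PECAM-1, moved in both directions: 3 of 8 tested rose, 3 fell and 2 missed the threshold (median log2 fold change 0.01). Itgb2, the beta chain shared by LFA-1 and Mac-1, rose from 39.9 ± 7.45 TPM (SD, n = 2) to 92.0 ± 8.03 TPM (SD, n = 3; 1.19 ± 0.18 SE, adjusted p = 0.0029). Itgal, the LFA-1 alpha chain that binds both ICAMs, rose by 1.72 ± 0.47 (adjusted p = 0.0227), but not without control replicate 1 (0.158, the top of a range from 0.0132). Itgam, the Mac-1 alpha chain, fell by 2.06 ± 0.27 (adjusted p = 0.00187), from 20.2 and 15.2 TPM to between 3.01 and 3.77 TPM. Itgb1, the beta chain of VLA-4 and of matrix-binding integrins, fell by 2.58 ± 0.59 (adjusted p = 0.012). Itgav fell by 1.33 ± 0.31 (adjusted p = 0.0132), and Itgb7, of the gut-homing integrin, rose by 1.85 ± 0.47 (adjusted p = 0.0173). These last 3 calls were also lost without control replicate 1 (Itgb1 0.106, within 0.00181 to 0.115; Itgav 0.0879, the highest from 0.00849; Itgb7 0.129, within 0.00948 to 0.133), and that of Itgb7 without control replicate 2 (0.0577). Itga4, which pairs with either beta chain and carries an overlap tag, was not called (-0.15 ± 0.28, adjusted p = 0.672).

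The list for ties between the actin cytoskeleton and the tails of CD44, CD43, PSGL-1 and the ICAMs mixed linkers with regulators. Stk10, Slk, Rhoa and Arhgdia are regulators, and Stk10 and Arhgdia were among those called higher. Of the 9 genes in the list, 5 were called higher, 1 lower and 3 had no call (median log2 fold change 0.85), beside 21.9% higher and 29.7% lower over all genes tested. With no filter these counts were 3 higher and 0 lower, and without control replicate 1 they were 4 and 0. Ezrin, moesin and radixin are linkers of the same family, and they are switched by phosphorylation. Ezr rose from 274 and 317 TPM to between 649 and 747 TPM (1.27 ± 0.15 SE, adjusted p = 0.00134). Stk10, the kinase LOK that phosphorylates them, rose by 2.50 ± 0.23 (adjusted p = 0.000737), and the scaffold Slc9a3r1 (EBP50) by 2.33 ± 0.18 (adjusted p = 0.000511). Msn, named after its values were seen, also rose (adjusted p = 0.0101, but 0.0672 without control replicate 1, the highest of a range from 0.00824). The third family member, radixin, moved the other way: Rdx fell by 2.05 ± 0.46 (adjusted p = 0.0115), from 264 and 130 TPM to 29.9, 37.0 and 77.0 TPM. The Rdx call was lost without control replicate 1 (0.102, within 0.00625 to 0.11).

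Proteases that cut CD44 and other adhesion molecules from the surface also split. Mmp14, a membrane-bound matrix metalloprotease known to shed CD44, stood at 295, 534 and 557 TPM in Pax5-Etv6 B-ALL and at 0.944 and 17.2 TPM in the controls. On the log2(TPM + 1) scale it was the largest change of the 60 tested partners (log2 fold change 6.23 ± 0.87 SE, adjusted p = 0.00232). Within Pax5-Etv6 B-ALL it was lowest in replicate 1, where stromal markers were also lowest (80.6 TPM), but replicate 3 matched replicate 2 in Mmp14 with a stromal sum of 174 TPM against 770 TPM. The part of stromal cells in its level was not tested. By the ratio of group means, which has no pseudocount, Vcam1 (201-fold) and Mmp9 (76.8-fold) exceeded Mmp14 (50.9-fold), from control means of 0.0983 and 0.0432 TPM, and with voom Vcam1 was at 7.76 and Mmp14 at 7.30. Adam10, another sheddase of CD44, fell by 1.97 ± 0.38 (adjusted p = 0.0071), from 316 and 118 TPM to between 46.1 and 51.4 TPM, a call lost with no filter (0.0801, the highest of a range from 0.0029). Adam17, tagged as overlapping, fell by 0.65 ± 0.18 (adjusted p = 0.0241), and this call was lost without control replicate 1 (0.105, the highest of a range from 0.0218) and without Pax5-Etv6 replicate 2 (0.0931) or 3 (0.0746), under median-of-ratios scaling (0.0678) and under quantile normalization (0.0562). Timp2 rose by 1.89 ± 0.61 (adjusted p = 0.0393), and leaving out any 1 of 4 libraries ended the call: control replicate 1 (0.244, the highest of a range from 0.0116) or 2 (0.0717) and Pax5-Etv6 replicate 2 (0.0511) or 3 (0.0638). It was highest in Pax5-Etv6 replicate 2 (13.6 TPM), where stromal and macrophage markers peak. Mmp9 also rose (adjusted p = 0.0152), to at most 5.47 TPM, a call lost when control replicate 1 (0.102, the upper end of a range from 0.00441) or 2 was left out. Of the 9 tested in this list, 3 rose and 2 fell.

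**Figure D4:**
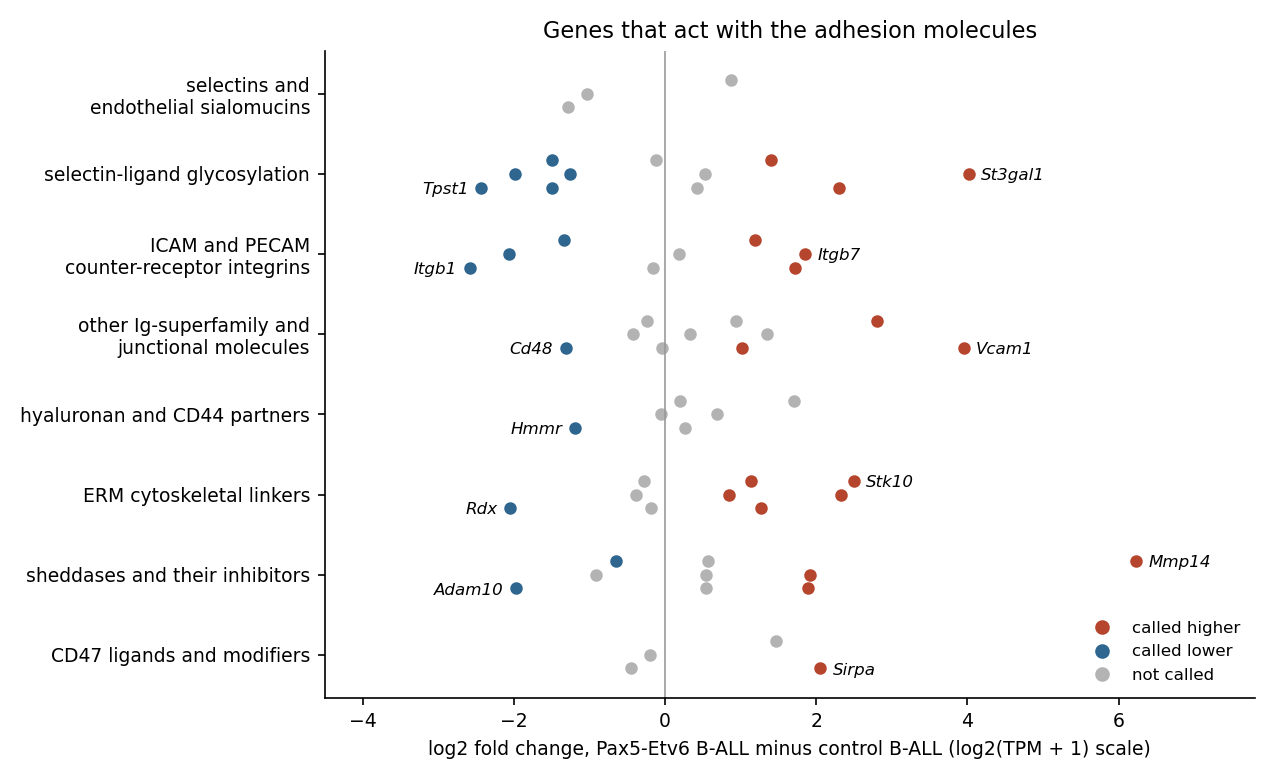
The log2 fold change of each of the 60 tested partner genes (x axis, Pax5-Etv6 B-ALL minus control B-ALL), 1 point a gene, in rows by role and coloured by call (limma adjusted p under 0.05); vertical position within a row only separates points. Mmp14 lies farthest out at 6.23, St3gal1 at 4.02 and Vcam1 at 3.95, and most rows hold calls in both directions.

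Of the 14 listed partners of hyaluronan and CD44, which include Spp1, Srgn, Cd74, Esrp1 and Esrp2, 8 were too low to test. Of the 6 tested, 1 fell, none rose and 5 were not called, beside 21.9% higher and 29.7% lower over all genes tested. The one that fell was Hmmr, a hyaluronan-binding protein that also acts at the mitotic spindle, from 117 and 93.5 TPM to between 34.8 and 57.2 TPM (log2 fold change -1.19 ± 0.24 SE, adjusted p = 0.00798). Its call was lost without control replicate 1 (0.0653, the highest of a range from 0.00665). The hyaluronan synthases Has1, Has2 and Has3 were at most 0.54 TPM in every library. The epithelial splicing regulators Esrp1 and Esrp2, which act on the variable exons of Cd44, were at most 0.15 TPM, and the deposited values are per gene, so Cd44 isoforms cannot be told apart. Srgn, a proteoglycan that can bind CD44, was high throughout at 285 to 714 TPM and was not called (adjusted p = 0.0636).

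Other adhesion molecules of the immunoglobulin and junctional families numbered 10 tested, of which 3 rose, 1 fell and 6 were not called. Vcam1, the ligand of VLA-4, stood at 10.2, 39.5 and 9.70 TPM against 0.0283 and 0.168 TPM (3.95 ± 0.61 SE, adjusted p = 0.00321, but 0.0518 with no filter, the highest of a range from 0.00136). It was highest in Pax5-Etv6 replicate 2, which also had the highest stromal and macrophage sums (770 and 540 TPM), and their part in it was not tested. Epcam rose by 2.80 ± 0.60 (adjusted p = 0.0096), which was no longer called without control replicate 1 (0.0673) or 2 (0.0579), within a range of 0.00248 to 0.0954. Icam4 rose too, named after its values were seen, at no more than 2.61 TPM (adjusted p = 0.0484). That call was lost when either control replicate or Pax5-Etv6 replicate 2 or 3 was left out, reaching 0.198 without control replicate 1, in a range from 0.0103. Cd48, the ligand of the lymphocyte receptors CD2 and CD244, fell from 115 and 113 TPM to between 43.9 and 46.6 TPM (-1.31 ± 0.14 SE, adjusted p = 0.00107).

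On the CD47 side, 1 of 4 tested partners rose and 3 were not called. Sirpa, the phagocyte receptor that reads CD47, stood at 6.05, 25.1 and 8.21 TPM against 0.852 and 3.44 TPM (2.06 ± 0.65 SE, adjusted p = 0.0371). Its highest value fell in Pax5-Etv6 replicate 2, the library with the highest macrophage sum, and the part of macrophages in it was not tested. The Sirpa call was lost without control replicate 1 (0.241, the highest of a range from 0.0161) or 2 (0.0529) and without Pax5-Etv6 replicate 2 (0.051) or 3 (0.0529). Qpctl, the enzyme that modifies the end of CD47 so that SIRP-alpha can bind, was not called, at 17.8 to 21.2 TPM against 18.8 and 25.6 TPM (-0.20 ± 0.23 SE, adjusted p = 0.494).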

How the data were processed

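The authors deposited 1 table of TPM values per RNA library, each summing to 1000000 over 24726 entries, per the file headers. HTSeq 0.5.3, DESeq2 1.4.1 and the mouse build mm9 are listed in the deposited record, per the submitters' processing notes, without their roles. For the aligner and the gene lengths, nothing is given in the sources used here. Entries were matched by name after removing tags. Whole reads were recovered for 16538 of 16538 entries above 0 in at least 2 libraries (relative tolerance 1e-08), as the smallest integers with those ratios between libraries; intervals and floors from them cover counting error only.

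The 3 Pax5-Etv6 and 2 control libraries were compared by limma (version 3.58.1, R version 4.3.3; lmFit and eBayes with trend, two-sided, no covariates) on the scale log2(TPM + 1). A gene was tested if 2 or more libraries reached 1 TPM. The fit was also run on simulated data, and the outcome is not given here. Replicates were numbered in accession order. The 9 genes, the partner and marker lists and the tests were chosen with earlier results of these data known. Named partners are up to 3 called genes per list and direction with at least 5 TPM in the higher group, or the highest member of a list without calls, plus those marked as named later. Alternatives were pseudocounts, filters, scalings, no trend, leaving out each library and, added after seeing the data, voom on recovered reads. Some items in the lists are not reported here. The 2 chromatin immunoprecipitation samples were not analysed here.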

Additional observations from a re-analysis of the deposited data

How the results depend on the processing

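Of the 14 alternative settings, leaving out control B-ALL replicate 1 and testing with no filter on low values changed most calls. With no filter, 1440 genes were called higher in place of 2588, and 10 partners rose and 8 fell in place of 18 and 13. Leaving out 1 library at a time gave 1410 to 2984 genes higher and 1954 to 3350 lower in place of 3511, and 11 to 22 partners higher and 6 to 14 lower. For Cd44 the log2 fold change was -7.01 with a pseudocount of 0.1 TPM, -4.62 with 5 TPM and -7.08 with voom on the recovered reads, and -6.44 to -5.86 over the libraries left out. The first 2 shifts follow from the pseudocount, since Cd44 is near 1 TPM in the Pax5-Etv6 libraries; for the other changes the cause was not tested. Esam moved most of the rest, between 0.34 and 3.74. Of 363 values for the 26 named partners, none changed sign, 326 stayed on the same side of the threshold, 36 lost a call and 1 gained one; with no filter, Vcam1 (adjusted p = 0.0518) and Adam10 (0.0801) lost theirs. The median of all genes tested was -0.11, and -0.02 under quantile normalization. No paired analysis was made, because the labels link no Pax5-Etv6 library to a control library.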
